A study of Saccharomyces cerevisiae with 44 samples.

Results

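TOS2, NKP1 and ASR1 are 3 of the 6600 S. cerevisiae mRNAs in the deposited count tables, and they were chosen by their large same-strand log2 changes between quiescent Nab3-AID cells and quiescent OsTIR-AID control cells. That comparison is therefore given as a description, without a test, and the other comparisons carry the tests. All cells were of the W303 background. Nab3-AID cells (strains 7716 and 7718) carry Nab3 fused to an auxin-inducible degron, a tag that lets auxin trigger destruction of the protein, and the control strains 6125 and 6126 are labelled OsTIR-AID. Both received auxin (IAA) at 1 mg/ml, and both were purified on a gradient as quiescent cells after 7 days in rich medium with glucose. Cells lacking RRP6 (strains 7078 and 7079) and wild-type cells (strains 5781 and 5782) received no auxin. They were sampled in quiescence at day 8 (day 7 for the Ovation libraries described next), in G1 after alpha-factor at 5 ug/ml, and 2 h before and 2, 24 and 48 h after the diauxic shift, the change from fermentation to respiration. Steady-state RNA was measured by RNA-seq and nascent RNA by 4tU-seq, which labels newly made RNA with 4-thiouracil. Each of the 22 groups had 2 samples, and wild-type G1 and quiescent cells were measured again with another library kit (Ovation SoLo, 8 libraries) apart from the 36 Universal Plus libraries. The labels name no promoter for OsTIR or the tagged gene, and nothing in them says whether samples of 1 strain came from separate cultures, so p-values measure the spread between these samples.

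Nab3 binds short motifs in nascent RNA and, with Nrd1 and the helicase Sen1, ends transcription of small nuclear and nucleolar RNAs and of cryptic unstable transcripts. Rrp6 is the nuclear exonuclease of the exosome, which trims or destroys many of the RNAs released that way. Where such termination fails, RNA polymerase II can run on into the next gene, on its strand or against it. TOS2 encodes a protein of the bud neck and polarised growth, NKP1 a subunit of the Ctf19 kinetochore complex, and ASR1 a RING-type ubiquitin ligase that acts on RNA polymerase II.

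Libraries held 1337088 to 11939647 S. cerevisiae mRNA counts, and levels are CPM, counts scaled to the library total and by TMM factors. K. lactis mRNA counts were also present, between 245829 and 10550609 per library, and the labels used here do not describe them. RRP6 stood at 3.35 to 18.1 CPM in the 14 rrp6 deletion libraries and at 85.1 to 273 CPM in the other 30. NAB3 mRNA stood at 506 to 744 CPM in the 4 Nab3-AID libraries and 732 to 967 CPM in the 4 controls, which says nothing of the protein. The summed level of 4 pheromone-response markers (FUS1, FIG1, ASG7, STE2) was 4340 to 8000 CPM in the 8 G1 libraries and 49.9 to 213 CPM in the 20 quiescent ones. The 4 quiescence markers (HSP12, HSP26, SPG1, GRE1) summed to 15.8 to 284 CPM in G1 and 1990 to 71400 CPM in quiescence. Changes are log2 values ± SE from edgeR's quasi-likelihood test with 2 samples a group, and adjusted p-values are Benjamini-Hochberg over all features of a table.

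**Figure D1:**
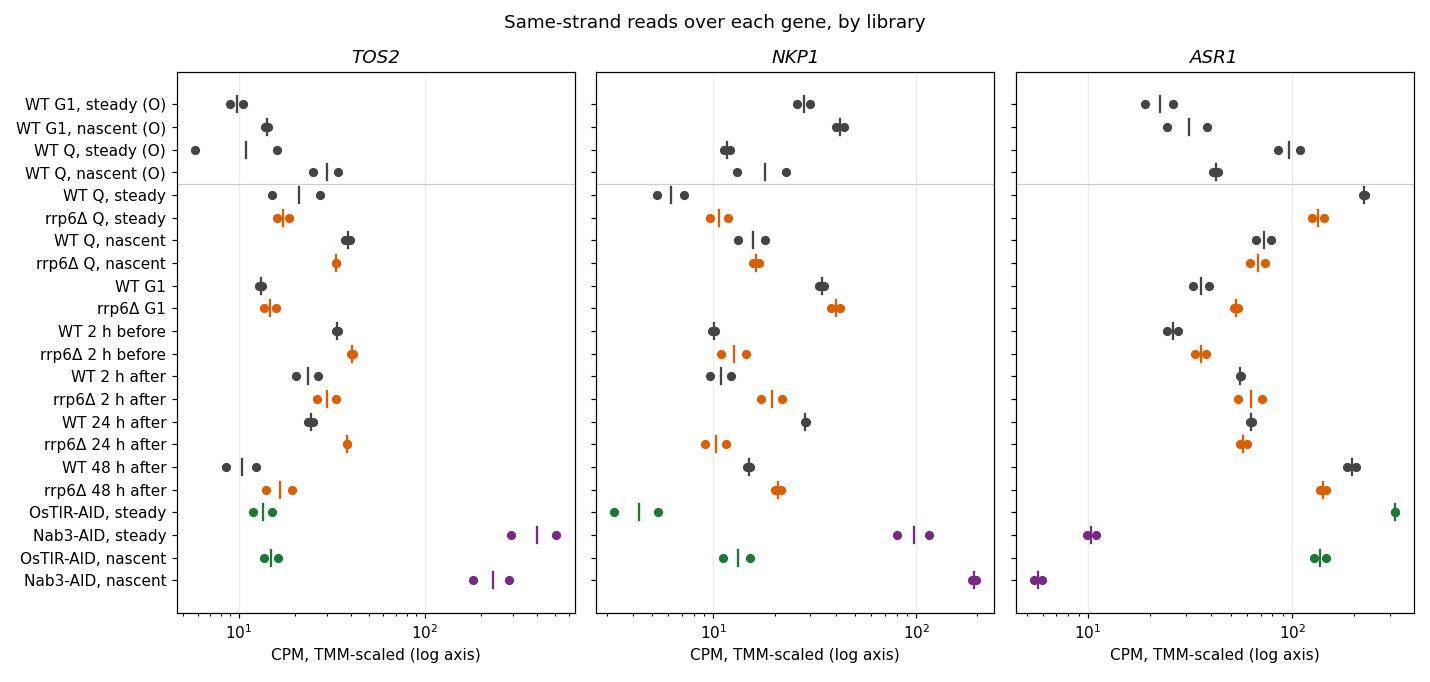
Same-strand level of each gene in CPM (log axis) in every library. Points are libraries, short lines are group means, O marks the Ovation kit, and the 2 kits were scaled apart. The Nab3-AID libraries hold the highest TOS2 and NKP1 and the lowest ASR1 levels among the 36 Universal Plus libraries.

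TOS2 (YGR221C) lies on the minus strand of chromosome VII, 937124 to 938992 in the deposited coordinates. Its nascent counts were 1813 and 2189 in Nab3-AID and 67 and 55 in the control. In steady-state RNA they were 1062 and 1354 against 14 and 11. The log2 difference was 4.11 ± 0.44 in nascent and 4.95 ± 0.60 in steady-state RNA. Over the 28 Universal Plus libraries without auxin TOS2 ran from 8.51 to 41.2 CPM, against 183 to 512 CPM in Nab3-AID.

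NKP1 (YDR383C) lies on the minus strand of chromosome IV, 1239960 to 1240676. Nascent counts were 1869 and 1521 in Nab3-AID and 74 and 38 in the control, and steady-state counts were 420 and 212 against 5 and 3. The log2 differences were 3.98 ± 0.18 in nascent and 4.57 ± 0.35 in steady-state RNA. Over the 28 libraries without auxin NKP1 ran from 5.27 to 42 CPM.

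ASR1 (YPR093C), on the minus strand of chromosome XVI at 719558 to 720424, had the opposite pattern. Nascent counts were 59 and 42 in Nab3-AID and 622 and 496 in the control, and steady-state counts were 40 and 26 against 299 and 292. The log2 differences were -4.43 ± 0.14 and -4.86 ± 0.16, each the lowest among all genes called lower in that fraction. Reads against ASR1 went the other way, with 1316 and 1142 nascent counts against 21 and 20, and 606 and 549 steady-state counts against 4 and 4 (log2 4.95 ± 0.22 and 5.49 ± 0.31). Over all loci 83.6% in nascent and 70.2% in steady-state RNA were called on the opposite strand, and 76.4% and 64.1% of all loci were called higher, with medians of 1.97 and 2.12. Antisense reads were 95.7% (95% Wilson interval 94.5 to 96.7) and 96.5% (95.2 to 97.4) of all nascent reads over the gene in Nab3-AID, and 3.27% (2.15 to 4.94) and 3.88% (2.52 to 5.91) in the control. Such intervals cover counting error only.

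In this comparison 69.9% of 6135 mRNAs fitted were called in nascent RNA and 63% in steady-state RNA. The 3 genes ranked 119, 132 and 90 by size among the 4290 called in nascent RNA (TOS2, NKP1, ASR1), and 130, 141 and 135 of 3868 in steady-state RNA. Among called genes with a standard name they ranked 21, 26 and 13, and 20, 23 and 22. The largest called changes were at open reading frames such as YDR274C (log2 11.33 ± 0.76, steady-state) and YJL169W (9.98 ± 0.60, nascent). Next below the lowest member came AZR1 (4.50 ± 0.81), YHL019W-A (4.48 ± 0.57) and HEM13 (4.47 ± 0.45) in steady-state RNA, and YBR113W (3.94 ± 0.42), YAL059C-A (3.94 ± 0.30) and YNL067W-A (3.93 ± 0.39) in nascent RNA. The central 95% of all mRNAs lay between -1.78 and 3.74 in nascent and between -2.12 and 4.46 in steady-state RNA.

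**Figure D2:**
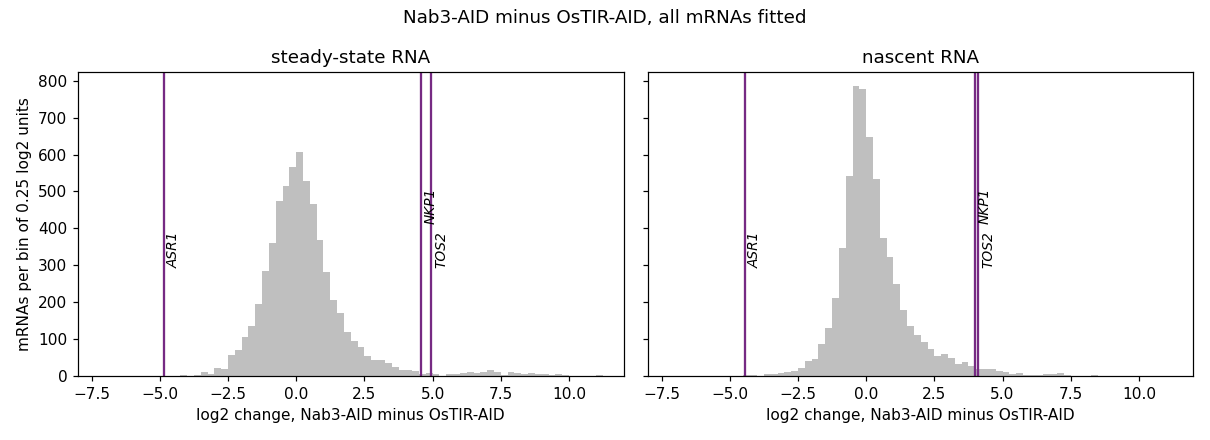
Number of mRNAs per bin of log2 change, Nab3-AID minus OsTIR-AID, in steady-state (left) and nascent RNA (right), with the 3 genes as purple lines. ASR1 sits at -4.86 and -4.43 in the left tail, and TOS2 and NKP1 lie in a long right tail that runs beyond them.

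The neighbourhoods of the genes differed. Upstream of TOS2, 466 bases away on its own strand, lies snR7, the U5 small nuclear RNA, here counted in a long (939459 to 939672) and a short form. Reads assigned to the long form alone numbered 27 and 22 in nascent Nab3-AID RNA against 0 and 1, and 29 and 27 against 0 and 0 in steady-state RNA. A transcript assembled by the authors from quiescent nascent RNA covers 937232 to 939700 and so spans most of TOS2 and snR7. The nascent log2 differences of the next genes were -0.70 ± 0.11 for MRPL9 downstream, a mitochondrial ribosomal protein, and 0.54 ± 0.14 for PET54 and -0.62 ± 0.09 for HSV2 upstream. In steady-state RNA they were -1.51 ± 0.13, 0.61 ± 0.21 and -0.75 ± 0.10. Antisense reads over TOS2 differed by -0.23 ± 0.19 in nascent and -1.09 ± 0.25 in steady-state RNA.

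Upstream of NKP1, 527 bases away on the same strand, lies ATO3, a plasma membrane protein linked to ammonium export. ATO3 itself was lower in nascent Nab3-AID RNA (log2 -1.14 ± 0.12; counts 4502 and 3601 against 5960 and 3414). An assembled quiescent transcript covers 1240072 to 1242265, across both genes. Its counts less those of NKP1 and ATO3, a difference that fell below 0 in some other libraries, were 692 and 571 against 105 and 45 in nascent RNA. In steady-state RNA they were 104 and 80 against 22 and 7, from libraries that differ in depth. Scaled to CPM, the nascent values were 70 and 73.8 against 21.5 and 13.2. The steady-state values were 28.4 and 30.2 against 23.6 and 7.59 CPM. Wild-type quiescent Ovation libraries, scaled apart, had 33.7 and 20.1 CPM in steady-state RNA. Past the 3′ end of NKP1 lies RPP2B, a ribosomal stalk protein on the other strand, and reads against it, on the strand of NKP1, were 163 and 141 against 1 and 0 in nascent RNA, and 36 and 18 against 0 and 0 in steady-state RNA. The nascent RPP2B change itself was -0.02 ± 0.17. In steady-state RNA the raw RPP2B counts were 258 and 168 in Nab3-AID against 26 and 31 in the control. Those libraries held 2759692 and 2081776 against 1356331 and 1337088 mRNA counts. These totals leave out the TMM factors that scale levels elsewhere, so these raw counts do not give the size of that change. In G1, by contrast, the authors' assembly holds NKP1 (1239880 to 1240787) and ATO3 (1241040 to 1242256) as separate transcripts.

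Reads against ASR1 coincide with a merged noncoding entry, CUT432/CUT1748/NUT0803, on the plus strand at 719236 to 720608. It held 1768 and 1498 nascent counts in Nab3-AID against 50 and 50, a log2 difference of 4.06 ± 0.18, and 802 and 713 against 8 and 10 in steady-state RNA. Among all noncoding RNAs 82.9% and 71.2% were called in these fractions, with medians of 1.74 and 1.70. RDS3, a splicing factor whose annotation starts 212 bases beyond ASR1 on that strand, had 764 and 628 nascent counts against 72 and 60 (log2 2.44 ± 0.15). SYT1, farther on and on the strand of ASR1, differed by -0.21 ± 0.09. On the other side, NVJ2, past the snoRNA genes snR41, snR70 and snR51 and added to the neighbours after its values were seen, differed by 0.92 ± 0.16 in nascent and 1.97 ± 0.20 in steady-state RNA. Which transcript each read came from was not tested.

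**Figure D3:**
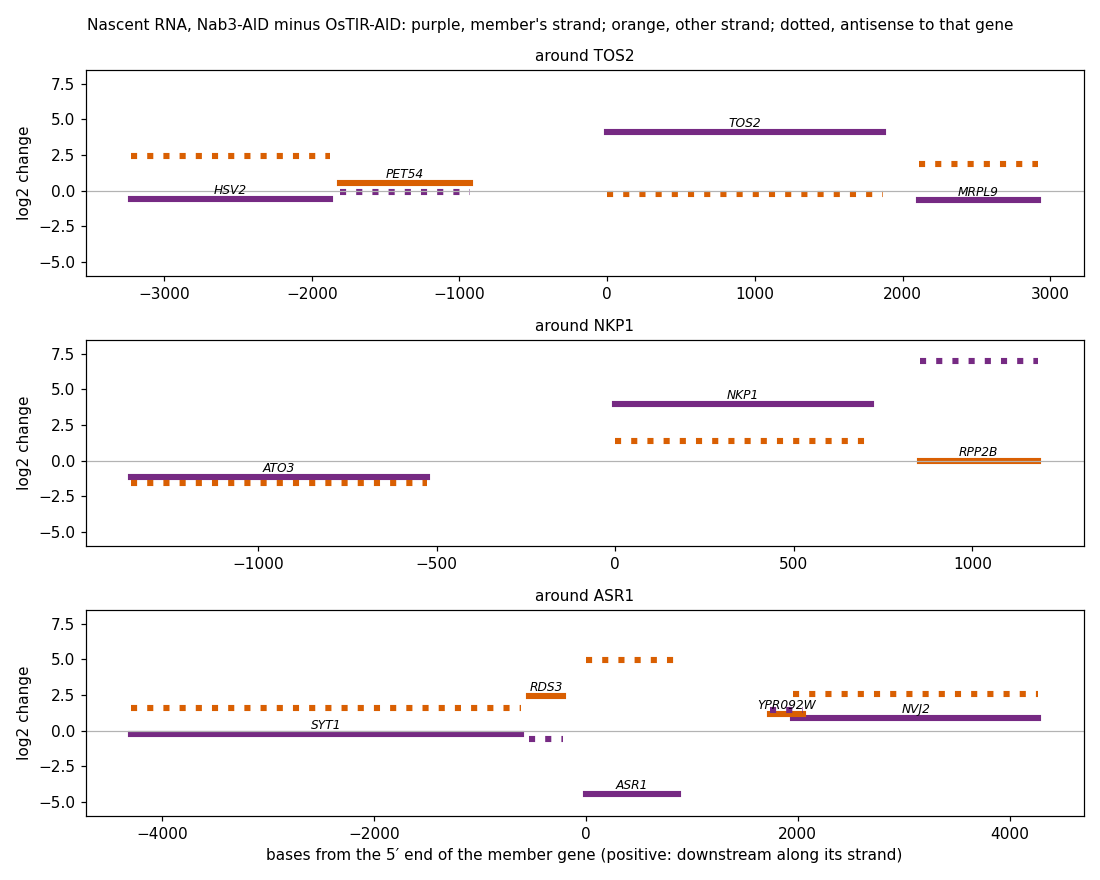
Log2 change of nascent RNA, Nab3-AID minus OsTIR-AID, over each gene around TOS2, NKP1 and ASR1, against distance in bases from the member's 5′ end. Purple is the member's strand, orange the other, solid bars are reads of the gene's own strand and dotted bars reads against it. The purple strand is high over NKP1 (3.98) and against RPP2B (6.98), and around ASR1 the orange strand is high over ASR1 (4.95) and RDS3 (2.44).

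Genes that share a pathway with the members were counted in lists chosen with earlier results of these data known. The outer kinetochore and Nrd1-Nab3-Sen1 lists hold no member, and the other 4 hold at least 1. Counts and medians of those 4 include the members, which were chosen for large changes in this same comparison. All list counts here are descriptions and test nothing. Of 18 genes of the inner kinetochore (CCAN) list, 6 were called higher and 7 lower in nascent RNA and 6 and 4 in steady-state RNA, with medians of -0.07 and 0.23 against 0.01 and 0.10 over all mRNAs. MCM16, another kinetochore subunit, was the next after NKP1 (1.95 ± 0.37 and 3.33 ± 0.99). Of 20 outer kinetochore genes, 10 were higher and 3 lower in nascent RNA and 5 and 7 in steady-state RNA, medians 0.32 and -0.14. DUO1, of the DASH complex, had 1.74 ± 0.14 and 2.49 ± 0.29. Of 29 polarity and bud-neck genes, 10 were higher and 9 lower in nascent RNA and 11 and 5 in steady-state RNA, medians 0.03 and 0.17, with RSR1, a bud-site GTPase, at 3.51 ± 0.52 in nascent RNA. Of 17 SBF targets, 9 were higher and 3 lower, and then 6 and 2, medians 0.24 and 0.11, with the kinase gene TOS3 at 3.46 ± 0.13 and 3.96 ± 0.22. Of 15 genes of RNA polymerase II ubiquitination tested, 5 were higher and 7 lower, and then 4 and 7, medians -0.09 and -0.25. All these shares stand beside 69.9% and 63% called over all mRNAs. Of 9 genes known to be attenuated by Nrd1 and Nab3, 7 were higher and 1 lower in both fractions, medians 1.53 and 1.45, led by NRD1 itself (2.34 ± 0.14 and 3.42 ± 0.16). Over all mRNAs 36% were called higher and 33.9% lower in nascent RNA, and 32.4% and 30.7% in steady-state RNA.

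Antisense reads over ASR1 rose in all 7 comparisons of rrp6 deletion with wild type. In quiescent steady-state RNA the antisense counts were 497 and 329 in the deletion and 8 and 11 in wild type. The log2 rise was 4.02 ± 0.31 there (adjusted p = 7.3e-11) and 1.89 ± 0.24 in quiescent nascent RNA (adjusted p = 2.6e-06). In G1 it was 3.92 ± 0.32 (adjusted p = 2.3e-26), and at 2 h before and 2, 24 and 48 h after the shift 3.84 ± 0.27, 3.26 ± 0.25, 3.57 ± 0.30 and 3.22 ± 0.27 (adjusted p at most 2.3e-24 in these 4). Over all loci 30.8%, 14.5%, 53.7%, 60.6%, 62%, 59.8% and 38.2% were called on the opposite strand in these comparisons, in the same order, most of them higher, so a call alone is common. The quiescent rise was larger in steady-state than in nascent RNA (2.13 ± 0.40, adjusted p = 9.6e-04, interaction test), a test that called 12.8% of loci. The merged entry CUT432/CUT1748/NUT0803 rose in the same 7, by 3.46, 1.18, 2.61, 3.02, 2.44, 2.87 and 2.69 (the quiescent nascent value was 1.15 with K. lactis scaling, adjusted p = 0.0598), where 38.5%, 18.3%, 72.6%, 77.9%, 74%, 70.6% and 49.2% of noncoding RNAs were called. The antisense share of ASR1 reads was 46.9% (43.3 to 50.6) and 49.4% (46.3 to 52.4) in quiescent steady-state deletion RNA and 3% (1.53 to 5.80) and 3.77% (2.12 to 6.62) in wild type.

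The ASR1 mRNA changed by at most 0.70, and in both directions. It fell by 0.70 ± 0.16 in quiescent steady-state RNA (adjusted p = 0.0263), but leaving out any 1 of the 4 libraries ended that call (adjusted p 0.234 and 0.123 without rrp6 deletion replicates 2 and 1, 0.116 and 0.0974 without wild-type replicates 1 and 2). It rose by 0.59 ± 0.11 in G1 (adjusted p = 1.8e-04) and by 0.44 ± 0.13 at 2 h before the shift (adjusted p = 0.0043), the latter call ending without deletion replicate 1 (0.34, adjusted p = 0.0797). At 48 h it fell by 0.48 ± 0.11 (adjusted p = 8.3e-04), and without wild-type replicate 1 the value was -0.38 (adjusted p = 0.0529). In quiescent nascent RNA (-0.07 ± 0.15) and at 2 h (0.17 ± 0.12) and 24 h (-0.13 ± 0.12) it did not pass the test. Over all mRNAs 11.9%, 1.22%, 48.6%, 62.9%, 63.1%, 66.5% and 46.7% were called, from quiescent steady-state and nascent RNA through G1 to 48 h. With K. lactis counts as the scale, the quiescent steady-state value turned to 0.43 and the 48 h value to 0.32, with the median of all mRNAs at 1.18 and 0.79. The change at 48 h was lower than that at 2 h before the shift by an interaction test added after the data were seen (-0.92 ± 0.17, adjusted p = 7.2e-05), which called 49.6% of mRNAs.

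**Figure D4:**
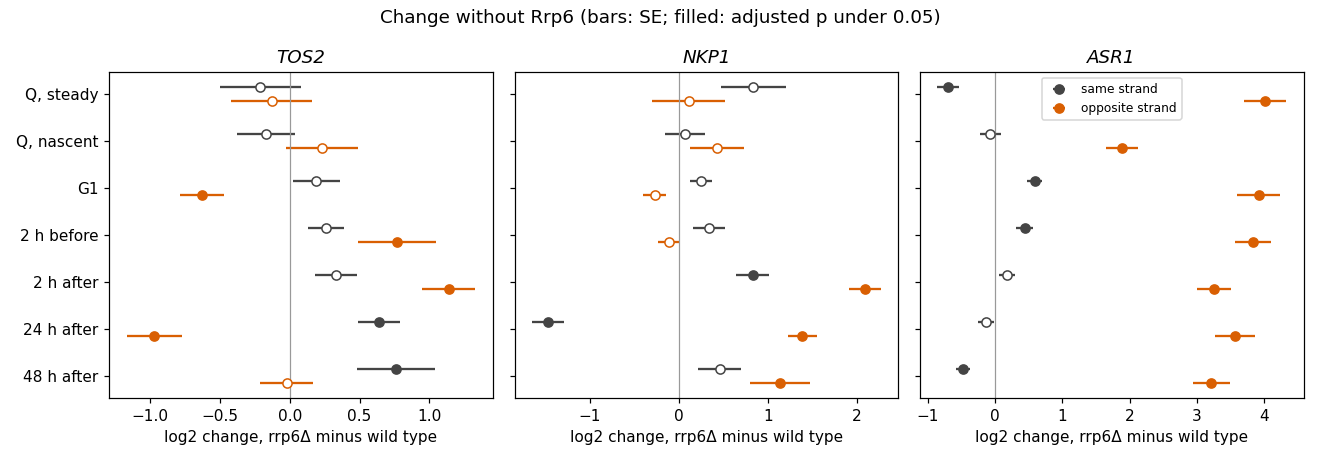
Log2 change, rrp6 deletion minus wild type, of same-strand (grey) and opposite-strand (orange) reads over each gene in 7 comparisons, with SE bars and filled points where the adjusted p is under 0.05. For ASR1 the orange points lie between 1.89 and 4.02 while the grey ones stay between -0.70 and 0.59.

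NKP1 mRNA and its antisense transcript both rose without Rrp6 at 2 h, and at 24 h the mRNA fell while the antisense rose. The antisense transcript NUT0156/CUT088/CUT1238, at 1239987 to 1241111 on the plus strand, was higher without Rrp6 in G1 (0.81 ± 0.17) and at 2 h before and 2, 24 and 48 h after the shift (1.40 ± 0.15, 3.14 ± 0.27, 3.11 ± 0.25 and 2.51 ± 0.45; adjusted p at most 4.2e-05 in all 5). Over all noncoding RNAs 69.1%, 72.9%, 68%, 58.7% and 41.1% were called higher in these 5, in the same order. The medians were 1.39, 1.58, 1.41, 1.17 and 0.80, so the values in G1 and before the shift lay below the median. Opposite-strand reads over NKP1 itself rose at 2 h (2.09 ± 0.18, adjusted p = 6.0e-25) and 24 h (1.39 ± 0.16, adjusted p = 2.0e-14). They also rose at 48 h (1.14 ± 0.34, adjusted p = 0.00427), where leaving out deletion replicate 2 or wild-type replicate 1 gave 0.48 and 0.44 (adjusted p = 0.456 and 0.523), batch 1 runs only gave 0.69 (adjusted p = 0.125) and the opposite-strand table scaled by itself gave 0.56 (adjusted p = 0.219). In G1 (-0.27 ± 0.13, adjusted p = 0.0595) and at 2 h before the shift (-0.11 ± 0.12, adjusted p = 0.408) they did not pass the test. With the opposite-strand table scaled by itself those values were -1.17 and -1.13 (adjusted p = 7.4e-15 and 4.9e-15), and K. lactis scaling gave -0.52 before the shift (adjusted p = 0.00147). The G1 value passed with RLE factors (-0.30, adjusted p = 0.0326) and with the replicate block (-0.27, adjusted p = 0.0422). In quiescence neither these reads nor the NUT0156 entry passed the test. With 1 library left out the reads lay at -0.09 to 0.37 in steady-state and -0.02 to 0.94 in nascent RNA. The entry lay at 0.07 to 1.33 and 0.33 to 1.16. K. lactis scaling gave steady-state values of 1.25 and 1.68 (adjusted p = 0.0216 and 0.0139), with medians of 1.92 and 1.89. The replicate block gave the entry 0.78 in nascent RNA (adjusted p = 0.0306). NKP1 mRNA rose at 2 h (0.83 ± 0.19, adjusted p = 4.3e-04) and fell by 1.47 ± 0.18 at 24 h (adjusted p = 1.0e-07). At 24 h its counts were 76 and 55 in the deletion and 81 and 90 in wild type, or 11.5 and 9.09 against 28.2 and 28.6 CPM. Its opposite-strand change was larger at 48 h than at 2 h before the shift (1.25 ± 0.36, adjusted p = 0.00505), in an interaction test that called 23.4% of loci. On the mRNA scale NKP1 mRNA did not pass the test in the other 5 comparisons, where it lay between 0.07 and 0.84. With K. lactis scaling it passed in quiescent steady-state RNA (1.98, adjusted p = 0.0035) and at 48 h (1.28, adjusted p = 1.5e-05). The medians of all mRNAs were then 1.18 and 0.79.

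TOS2 mRNA was higher without Rrp6 at 24 h (0.64 ± 0.15, adjusted p = 8.4e-04) and 48 h (0.76 ± 0.28, adjusted p = 0.0299). The second call ended without deletion replicate 2 (0.51, adjusted p = 0.258), without wild-type replicate 1 (0.44, adjusted p = 0.426) or with the first sequencing batch of the resequenced sample alone (0.74, adjusted p = 0.0626). Its antisense reads were lower in G1 (-0.63 ± 0.16, adjusted p = 3.7e-04) and at 24 h (-0.97 ± 0.20, adjusted p = 1.2e-05). They were higher at 2 h before (0.77 ± 0.28, adjusted p = 0.0109) and 2 h after the shift (1.14 ± 0.19, adjusted p = 5.2e-08). The call before the shift ended without deletion replicate 2 (0.71, adjusted p = 0.0574) or wild-type replicate 2 (0.46, adjusted p = 0.213), and scaling the opposite-strand table by itself gave -0.25. The same scaling gave 0.10 for the value after the shift (adjusted p = 0.694), and K. lactis scaling turned the 24 h value to 0.44. Neither strand passed the test in quiescence, where the 4 values lay between -0.21 and 0.23. The steady-state antisense value passed in both directions under other scalings, -0.82 with the opposite-strand table scaled by itself (adjusted p = 0.0407) and 1.03 with K. lactis counts (adjusted p = 0.0183).

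**Figure D5:**
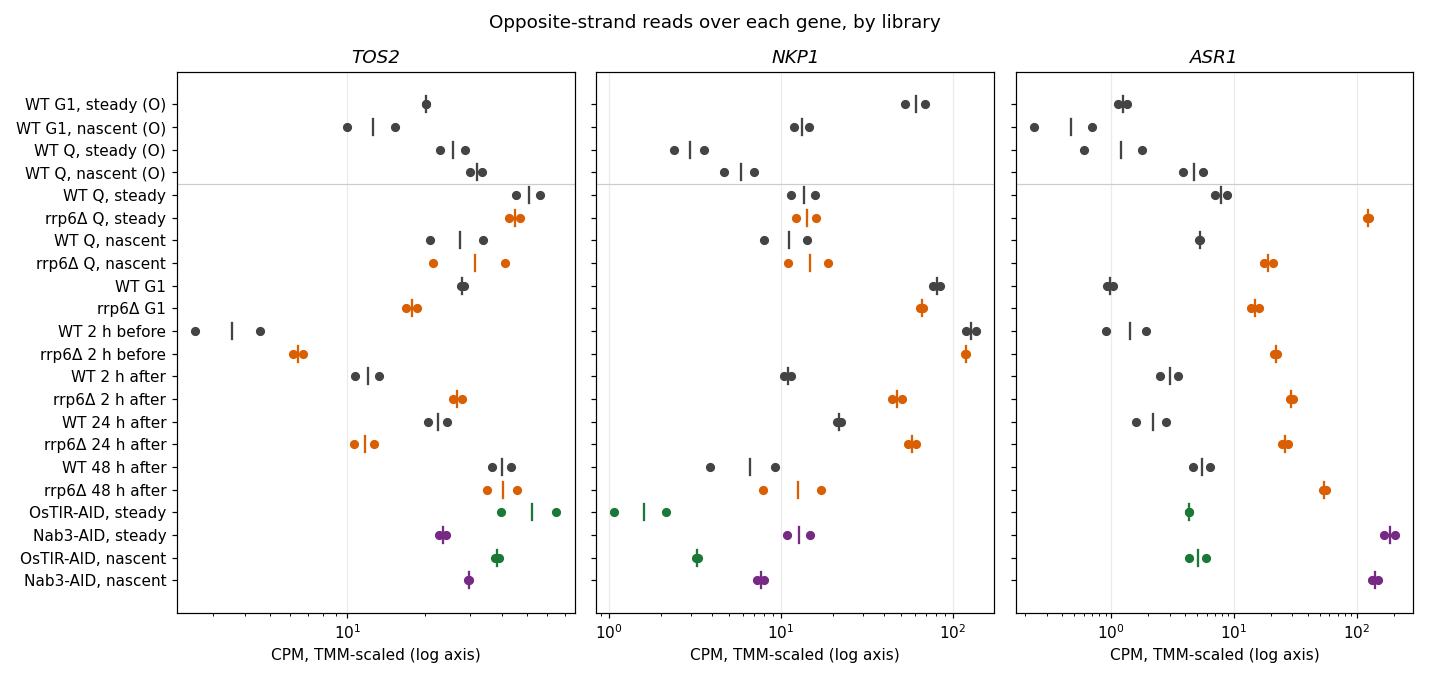
Opposite-strand level over each gene in CPM (log axis) in every library, drawn as for the same strand. Every rrp6 deletion library lies above every wild-type Universal Plus library for ASR1, 13.8 to 126 against 0.912 to 8.71 CPM, and NKP1 antisense is highest at 2 h before the shift.

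In wild-type cells the 3 mRNAs followed different courses. ASR1 rose from 2 h before to 2 h after the shift (1.06 ± 0.12, adjusted p = 2.2e-08) and again from 24 to 48 h (1.63 ± 0.12, adjusted p = 5.3e-12), reaching 205 and 185 CPM at 48 h and 228 and 222 CPM in quiescence. In steady-state RNA of the Ovation libraries it was higher in quiescence than in G1 (2.10 ± 0.28, adjusted p = 1.3e-04), and in nascent RNA the value was 0.43 ± 0.26 (adjusted p = 0.168). NKP1 was lower in quiescence than in G1 in steady-state (-1.25 ± 0.31, adjusted p = 0.0053) and nascent RNA (-1.23 ± 0.27, adjusted p = 0.00391). It rose from 2 to 24 h (1.38 ± 0.18, adjusted p = 4.1e-07), a value of -0.04 with K. lactis scaling, and fell by 0.93 ± 0.21 from 24 to 48 h (adjusted p = 3.8e-04). Over all mRNAs 74.6% were called between quiescence and G1 in steady-state and 62.1% in nascent RNA, and 78%, 60.6% and 71.7% over the 3 steps of the shift.

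TOS2 mRNA and its antisense moved oppositely in 2 of those 3 steps on the mRNA scale. From 2 h before to 2 h after the shift the mRNA fell by 0.55 ± 0.14 (adjusted p = 0.00101) while antisense reads rose by 1.65 ± 0.25 (adjusted p = 3.6e-09). From 24 to 48 h the mRNA fell by 1.34 ± 0.25 (adjusted p = 3.9e-05) and antisense reads rose by 0.83 ± 0.20 (adjusted p = 2.8e-04), a rise that was 0.66 without wild-type 48 h replicate 1 (adjusted p = 0.103) and 0.36 with the opposite-strand table scaled by itself (adjusted p = 0.186). With K. lactis scaling the antisense value from 24 to 48 h was -0.58 (adjusted p = 0.0299), the direction of the mRNA. Alpha-factor G1 against 2 h before the shift showed the same order, -1.38 ± 0.15 for the mRNA (adjusted p = 4.0e-08) and 2.88 ± 0.22 for antisense reads (adjusted p = 1.4e-28), but the Universal Plus G1 libraries were all sequenced in the second batch and batch and state cannot be told apart. There the antisense share was 68.6% (62.5 to 74.2) and 67.3% (60.8 to 73.1) in G1 and 11.9% (8.58 to 16.2) and 7.14% (4.30 to 11.6) before the shift. Over the 28 libraries without auxin, which share a kit and differ in depth, log2 sense and antisense levels of TOS2 correlated at r = -0.53, those of NKP1 at 0.20 and of ASR1 at 0.38. Between quiescence and G1, nascent TOS2 was higher on both strands, 1.07 ± 0.35 (adjusted p = 0.0261) and 1.33 ± 0.32 (adjusted p = 0.00138), although the first ended without G1 replicate 1 or 2 or quiescent replicate 1 (1.03, 1.08 and 0.83; adjusted p = 0.112, 0.102 and 0.13). The second ended without G1 replicate 1 (1.04, adjusted p = 0.0531) and was -0.20 with the opposite-strand table scaled by itself. Over all loci the opposite-strand median in that comparison was 1.66, above the TOS2 value, and 59% were called higher. With K. lactis scaling both TOS2 values turned, to -3.42 and -2.99. The medians were then -4.56 for mRNAs and -3.47 for the opposite strand.

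NKP1 antisense was highest 2 h before the shift, at 119 and 136 CPM, and fell by 3.58 ± 0.16 by 2 h after it (adjusted p = 3.4e-61). It rose by 1.00 ± 0.21 to 24 h (adjusted p = 3.2e-05), a value of -0.43 with K. lactis scaling (adjusted p = 0.0969). NKP1 antisense then fell by 1.96 ± 0.30 to 48 h (adjusted p = 3.2e-09). The authors' assembled plus-strand transcripts over RPP2B, 1239385 to 1239970 (quiescent) and 1239385 to 1239991 (G1), reach past the 3′ end of NKP1 at 1239960. Reads of such a transcript past that point can be counted as opposite-strand reads over NKP1. RPP2B, whose annotation ends 135 bases from NKP1 on that opposite strand, had 7980 and 6473 raw counts before the shift. At 2, 24 and 48 h it had 535 and 519, 601 and 727, and 153 and 71. Before the shift NUT0156/CUT088/CUT1238 held 171 and 163 counts, against 854 and 745 opposite-strand counts over NKP1. Which transcript the NKP1 antisense reads came from was not tested in any comparison. ASR1 antisense in wild type ran from 0.912 to 8.71 CPM, and its rise from 24 to 48 h (1.40 ± 0.49, adjusted p = 0.0181) ended without 24 h replicate 2 (1.04, adjusted p = 0.191) or 48 h replicate 1 (1.06, adjusted p = 0.385) and with the opposite-strand table scaled by itself (0.94, adjusted p = 0.152). Opposite-strand reads were called at 41.2%, 20.4% and 29.8% of loci over the 3 steps and at 17.6% between G1 and 2 h before the shift, where 53.6% of mRNAs were called. Between quiescence and G1 the opposite strand was called at 51% of loci in steady-state and 67.3% in nascent RNA, with medians of 1.13 and 1.66. NKP1 antisense was lower in quiescence in both (-4.38 ± 0.42, adjusted p = 2.4e-07, and -1.19 ± 0.34, adjusted p = 0.00535), the nascent call ending without G1 replicate 1 (-1.05, adjusted p = 0.0519). Nascent ASR1 antisense was higher in quiescence (3.29 ± 0.62, adjusted p = 2.1e-04), on counts of 53 and 43 against 3 and 9 in G1. The value was 2.71 without G1 replicate 1 and 4.21 without G1 replicate 2, and 1.73 with the opposite-strand table scaled by itself (adjusted p = 0.0118).

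Nascent and steady-state RNA of wild-type Ovation libraries differed for TOS2 and ASR1 in quiescence. Nascent TOS2 was higher than steady-state TOS2 (1.37 ± 0.39, adjusted p = 0.0171; 1.13 and adjusted p = 0.082 without nascent replicate 1), and nascent ASR1 was lower (-1.19 ± 0.26, adjusted p = 0.00534). NKP1 had 0.62 ± 0.30 (adjusted p = 0.118). None of the 3 passed the test in G1, where they lay between 0.48 and 0.60. Over all mRNAs 52.9% were called in quiescence and 27.5% in G1.

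Several of these calls hold only relative to the S. cerevisiae mRNA total. With K. lactis counts as the scale, without Rrp6 NKP1 was 0.05 at 2 h (adjusted p = 0.857) and -0.06 at 24 h (adjusted p = 0.798), ASR1 was 0.04 at 2 h before the shift (adjusted p = 0.841), and TOS2 antisense was 0.37 and 0.35 before and after it (adjusted p = 0.294 and 0.167). In wild type ASR1 was 0.11 across the shift (adjusted p = 0.504) and 0.24 from 24 to 48 h (adjusted p = 0.124), and steady-state NKP1 in quiescence against G1 was -1.63 (adjusted p = 0.0677). Other calls were gained under this scaling, such as NKP1 mRNA without Rrp6 in quiescent steady-state RNA (1.98, adjusted p = 0.0035) and at 48 h (1.28, adjusted p = 1.5e-05). Antisense reads over ASR1 passed the test under this scaling in the same 7 rrp6 comparisons, between 1.84 and 5.16. With the opposite-strand table scaled by itself they also passed in all 7, at lower values than on the mRNA scale, between 1.63 and 3.33. In Nab3-AID that scaling gave ASR1 antisense differences of 3.22 in nascent and 3.82 in steady-state RNA, again lower.

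The genes most like each member over the 36 Universal Plus libraries, by Pearson's r of log2 CPM with a prior count of 2, were IPK1 (0.90), YNL226W (0.90) and YLR140W (0.89) for TOS2. For NKP1 they were YGR122W (0.83), YFL051C (0.82) and YGK3 (0.82), and for ASR1 MPE1 (0.96), APA2 (0.94) and GPB1 (0.93). Without the 8 auxin libraries the leading genes became MNN1 (0.86), GIN4 (0.85) and BBP1 (0.85) for TOS2, NDJ1 (0.89), MST27 (0.81) and HYM1 (0.79) for NKP1, and KSP1, YAP1 and TOK1 (0.97 each) for ASR1. These libraries share kit and growth states, and the values are descriptions.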

How the data were processed

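Counts were deposited by the authors as HTSeq tables per feature of same-strand mRNAs, opposite-strand reads, noncoding catalogues and assembled transcripts. The submitters' processing notes name UMI-tools, STAR, SAMtools, HTSeq and deepTools and the builds sacCer3 and R64, without versions. The 46 columns were joined to 44 samples, 2 of them sequenced in both batches and summed. Members and lists were chosen with earlier results of these data known. The genes named are the members, their neighbours and overlapping noncoding RNAs, RRP6, NAB3 and NRD1, the 3 most alike genes, the 3 of next rank, and up to 2 called genes per list. Counts were tested with edgeR 4.0.16 (robust quasi-likelihood, TMM on S. cerevisiae mRNAs, filterByExpr, Benjamini-Hochberg, threshold 0.05) in 4 library sets fitted apart. Opposite-strand and noncoding tables used the same library sizes. All 3 members passed the filter in every set. The procedure was tested on simulated data. Rows naming no gene were left out: 6.36% to 28% of reads had no feature, 7.99% to 62.5% were not unique and 0.121% to 1.99% were ambiguous. Same-numbered wild-type samples are 1 strain by label, so the number pairs them, and their deviations correlated between -0.07 and 0.55 in 8 comparisons. In the other 9 the samples share only a number. Replicates differed by more than counting noise in every group (chi-square per gene 2.25 to 87.2). Alternatives were RLE factors, K. lactis scaling, no filter, DESeq2 1.42.0, a replicate block, each library left out, the opposite-strand table's own TMM and, added after seeing the data, batch 1 runs only and likeness without auxin. The noncoding catalogue before merging was not tested.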

Additional observations from a re-analysis of the deposited data

Results flagged for a closer look

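The rise of ASR1 antisense without Rrp6 in quiescence was larger in steady-state than in nascent RNA by 2.13 ± 0.40 on the log2 scale (interaction test in edgeR, adjusted p = 9.6e-04), where 12.8% of opposite-strand loci were called in that test. The change of ASR1 mRNA without Rrp6 differed between 48 h after and 2 h before the shift by -0.92 ± 0.17 (adjusted p = 7.2e-05), with 49.6% of mRNAs called. The change of opposite-strand reads over NKP1 differed between the same times by 1.25 ± 0.36 (adjusted p = 0.00505), with 23.4% of loci called. These interactions were added after the data were seen, and 1 of the 4 libraries at 48 h was sequenced in the second batch only.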

How the results depend on the processing

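Scaling by K. lactis counts, whose meaning the labels used here do not give, moved most. It put the median Nab3-AID difference at 1.82 in steady-state and 1.13 in nascent RNA, with TOS2 at 6.58 and 5.15, NKP1 at 6.29 and 5.04 and ASR1 at -3.17 and -3.32. Numbers of changed mRNAs became 2492 (median -0.41) and 5600 (-4.56) for quiescence against G1 in steady-state and nascent RNA, 4533 for nascent against steady-state RNA in G1, 4231 for rrp6 deletion in quiescent steady-state RNA and 4727 at 48 h. Directions turned as follows. In quiescence against G1, nascent RNA, TOS2 was -3.42 and its antisense -2.99, and ASR1 was -3.90. Quiescent nascent against steady-state TOS2 was -0.87. For rrp6 deletion in quiescent steady-state RNA, ASR1 was 0.43, TOS2 antisense 1.03 and its transcript SUT138 1.02. At 2 h TOS2 was -0.46 and ASR1 -0.63. At 24 h ASR1 was 1.28, TOS2 antisense 0.44 and SUT138 0.34, and at 48 h these were 0.32, 0.80 and 0.75. In wild type NKP1 was -0.86 across the shift. From 2 to 24 h TOS2 was -1.37, NKP1 -0.04, ASR1 -1.25, TOS2 antisense -0.50 and NKP1 antisense -0.43. From 24 to 48 h TOS2 antisense was -0.58 and ASR1 antisense -0.02. In Nab3-AID TOS2 antisense was 0.59 and 0.86 and SUT138 0.34 and 0.63 in steady-state and nascent RNA. With the opposite-strand table scaled by itself, TOS2 antisense was -0.20 in nascent quiescence against G1 and -0.25 for rrp6 deletion before the shift. Nascent NKP1 antisense in Nab3-AID was -0.37 with that scaling. On the mRNA scale it stood at 7.29 and 8.02 CPM against 3.28 and 3.23 in the control. Leaving out 1 library gave log2 differences of 1.28 to 1.43, where the all-locus median was 1.97. Steady-state levels were 10.9 and 14.7 against 2.14 and 1.08 CPM, the controls on 2 and 1 counts.

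For rrp6 deletion in quiescent nascent RNA the 75 mRNAs called became 230 with DESeq2 and 183 with the replicate block, where samples share only a number; among the samples paired by strain the block moved no count by more than 1.5 times. Leaving out 1 library gave 346 to 629 mRNAs for nascent against steady-state RNA in G1, 27 to 194 for rrp6 deletion in quiescent steady-state RNA, 20 to 93 in nascent RNA and 1817 to 2592 at 48 h. Noncoding RNAs were not tested in the catalogue before merging. Why the counts moved with 1 library left out was not tested, and those fits hold fewer samples. With 2 samples a group and control counts as low as 3, steady-state NKP1 differences rest on few reads.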
